A study of Mus musculus with 15 samples.

Results

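Radiation given on top of an immune checkpoint inhibitor was set against the inhibitor alone in tumours of LLC1-sgLkb1, a Lewis lung carcinoma line of the mouse whose genotype label is LKB1 knockdown (KD). The comparison holds 6 of the 15 libraries of the series, chosen by their titles: 3 KD tumours with radiation and inhibitor (KD RI 1 to 3) and 3 KD tumours with inhibitor and no radiation (KD ICI 1 to 3). All 6 are labelled as knockdown and as given the inhibitor, so radiation is the labelled difference; for KD ICI 3 the description, which carries CON, leaves the treatment uncertain. Wild-type LLC1 tumours with radiation and inhibitor (WT RI) and with inhibitor alone (WT ICI), 3 libraries each, gave the same contrast without the knockdown. A further 3 KD libraries had radiation alone (KD RT). The labels do not name the inhibitor, the radiation dose, the time of harvest, the strain and age of the mice, whether the sgLkb1 line is 1 clone, or whether the tumour taken was itself irradiated. The labels do not say that samples are separate animals, so p-values measure only the spread between these samples. RNA came from whole tumours, and in such samples fewer cells of a type and less RNA per cell cannot be told apart.

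LKB1, encoded by Stk11, is the kinase that activates AMPK and its relatives, among them the salt-inducible kinases. Checkpoint inhibitors release T cells from inhibitory receptors, and radiation breaks DNA, arrests the cycle through p53 and can expose antigen and interferon signals. Myeloid cells, which enter through the integrin CD11b and signal through Fc and paired receptors, are among the most abundant host cells of transplanted lung carcinomas and can restrain or help the T cell response.

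The 6 KD libraries held between 17289313 and 23371215 counts, and 16617 of 53465 listed genes passed the filter on low counts over the 12 count libraries. Levels are CPM, counts scaled to a common library total, with TMM factors. Changes are log2 fold changes, RI minus ICI, with their standard error, from edgeR's quasi-likelihood test, and adjusted p is by the Benjamini-Hochberg method over all genes tested. The median change of all genes was -0.02. KD ICI 3 stood apart from the rest of its group. Its description starts with SG793 and carries CON where those of KD RI 1 and KD RI 3, also SG793, carry ICI+RT. No WT description carries SG793. Those of all WT RI libraries, WT ICI 2, KD RI 2 and KD ICI 1 end in JIAN. Those of WT ICI 1, WT ICI 3 and KD ICI 2 end in TUI. In WT these endings thus differ in part with treatment, and their bearing on the contrasts was not tested. No source used here explains these namings, or says whether KD ICI 1 and KD ICI 2, both described with H80, came from 1 animal. The root-mean-square log2 distance of KD ICI 3 was 0.876 to KD ICI 1 and 0.784 to KD ICI 2, but 0.610 to 0.685 to the KD RI libraries. KD ICI 1 and KD ICI 2 lay 0.531 apart. Results are therefore given with all libraries and, where stated, also without KD ICI 3. Stk11 stood at 139, 111 and 127 CPM in KD RI and at 115, 128 and 152 CPM in KD ICI, with overlapping groups (-0.07 ± 0.12, adjusted p = 0.808). Since both groups carry the knockdown, this level does not check it. WT RI had 140, 140 and 147 CPM of Stk11 and WT ICI 168, 152 and 171 CPM. KD against WT was not tested here. Of the labelled tumour, the keratin gene Krt8 had 540 to 613 CPM in KD RI and 478 to 755 CPM in KD ICI, while the T cell receptor gene Cd3e had 0 to 0.156 CPM in KD RI and 0 to 0.208 CPM in KD ICI.

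With all libraries, 14 genes were lower and 0 higher in KD RI than in KD ICI, which is 0.0843% and 0% of the genes tested. The 13 described here are mostly genes of leukocytes: receptors and an adhesion molecule of myeloid cells (Itgam, Fcgr3, Pirb), cytoskeletal regulators (Coro1a, Gmfg, Cytip), immune regulators (Slfn2, Ptpn22, Runx3, Cd52, Vsir) and a pair of nonclassical class I genes (H2-Q6, H2-Q7). At an unadjusted p under 0.05, 814 genes were higher and 1641 lower. KD RI and KD ICI did not overlap for all 14, as was so in the lower direction for 1245 of all genes (7.49%) and in the higher direction for 929 (5.59%). The test pools the spread of 4 groups; fitted on the 6 KD libraries alone it called 0 genes, with 1153 at an unadjusted p under 0.05, whereas DESeq2 on all 12 libraries called 77 higher and 393 lower, all 14 among them. Over all genes 46.8% of changes were positive and 53.1% negative.

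Single libraries moved the count. It was 1 without KD RI 1, 0 without KD RI 3 and 120 without KD RI 2. Without KD ICI 3 it was 3324, with 1527 genes higher (8.91%) and 1797 lower (10.5% of 17133 tested), 19.4% in all. The groups then did not overlap for 22.3% of genes in the higher and 24.7% in the lower direction. With a term for the SG793 naming, 76 genes passed (0.457%), 1 higher (0.00602%) and 75 lower (0.451%), all 14 among them. Within the SG793 libraries (KD RI 1 and 3 against KD ICI 3) 481 passed (2.89%), 99 higher (0.596%) and 382 lower (2.3%), with 12 of the 14 among them. Within the other KD libraries (KD RI 2 against KD ICI 1 and 2) 97 passed (0.584%), 48 higher (0.289%) and 49 lower (0.295%), with 6 of the 14 among them. All 14 genes were lower in every setting tried, all 14 were called without KD ICI 3, and on the log2 scale KD ICI 3 lay nearer to the mean of KD ICI 1 and 2 than to that of KD RI for each of them. The 14 were chosen by a test that held KD ICI 3 in the ICI group, which favours that position in advance. With each of the 12 libraries dropped in turn, Slfn2 kept its call 11 times and Itgam, Pirb, H2-Q7 and Cd52 10 times. H2-Q6 kept it 8 times, Fcgr3 and Gmfg 6 times, Cytip 5 times, Coro1a, Ptpn22 and Runx3 4 times, and Vsir 3 times. None of the 14 kept it without KD RI 3.

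**Figure D1:**
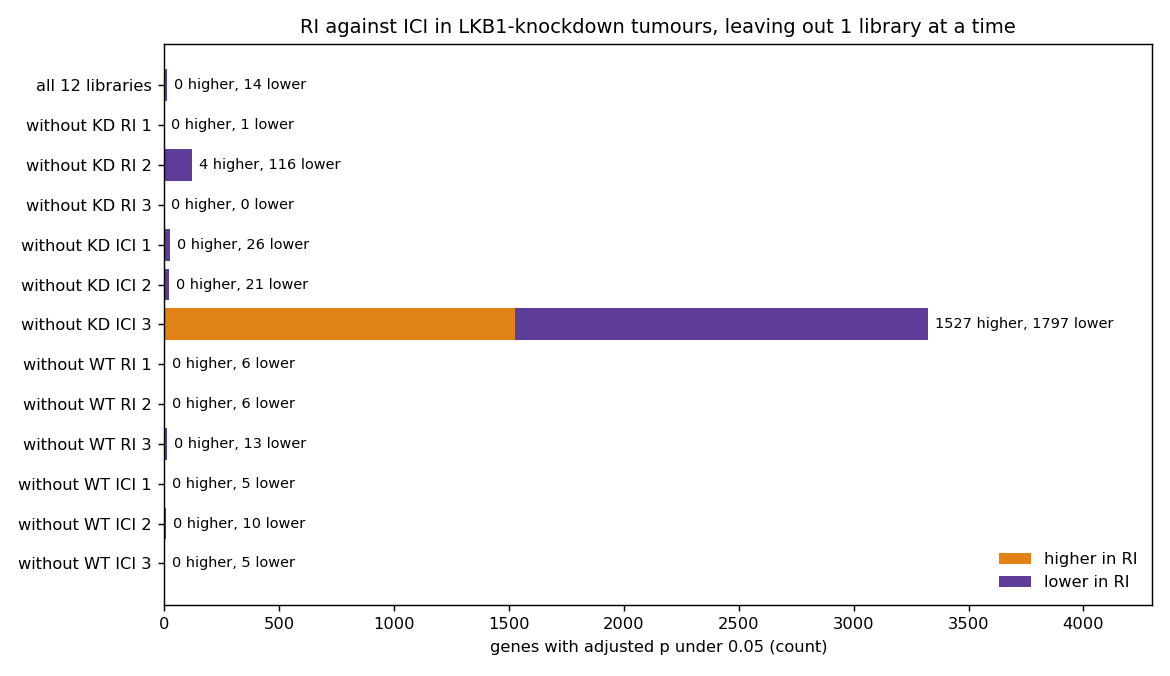
Number of genes past an adjusted p of 0.05 for RI against ICI in KD tumours (x axis, count), with all 12 libraries and with each library left out in turn (y axis). Orange bars count genes higher in RI and purple bars genes lower in RI. Leaving out KD ICI 3 raised the count to 3324, against 14 with all libraries and at most 120 for any other library.

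Among surface molecules of myeloid cells, Itgam encodes CD11b, the integrin chain that marks macrophages and neutrophils (chromosome 7, 128062640 to 128118491, GRCm38). It had 10.03, 10.86 and 10.02 CPM in KD RI and 22.7, 19.6 and 24.9 CPM in KD ICI. The highest KD RI library was below the lowest KD ICI library, and Itgam fell by 1.12 ± 0.12 (adjusted p = 0.0046). Fcgr3 (chromosome 1, 171051174 to 171064935) encodes an activating low-affinity receptor for immunoglobulin G. It had 16.6, 18.1 and 17.8 CPM in KD RI and 28.8, 33.4 and 40.6 CPM in KD ICI, and fell by 0.97 ± 0.13 (adjusted p = 0.021). Pirb (chromosome 7, 3711409 to 3720391) encodes an inhibitory receptor of myeloid and B cells that binds class I molecules. It had 15.2, 19.8 and 14.4 CPM in KD RI and 37.0, 29.9 and 43.7 CPM in KD ICI, and fell by 1.16 ± 0.15 (adjusted p = 0.013). Both genes were apart between the groups, and both have close relatives whose reads the counting could mix with theirs. Within the SG793 libraries Itgam, Fcgr3 and Pirb were lower by 1.31, 1.24 and 1.56. Within the other KD libraries they were lower by 0.96, 0.78 and 0.76.

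Inside the cell, Coro1a (chromosome 7, 126699773 to 126707787) encodes coronin 1A, an actin regulator of leukocytes. It had 11.97, 18.97 and 12.88 CPM in KD RI and 40.8, 34.2 and 40.3 CPM in KD ICI, and fell by 1.39 ± 0.21 (adjusted p = 0.030). KD RI 2 was the highest of its group and KD ICI 2 the lowest of its own, with the groups apart. Gmfg (chromosome 7, 28437447 to 28448233), a glia maturation factor of blood cells that acts on branched actin, had 2.60, 3.22 and 2.23 CPM in KD RI and 7.61, 6.78 and 6.34 CPM in KD ICI, and fell by 1.36 ± 0.19 (adjusted p = 0.022). Cytip (chromosome 2, 58129137 to 58195532), which binds the integrin regulator cytohesin in leukocytes, had 2.83, 3.38 and 2.39 CPM in KD RI and 11.3, 6.20 and 9.57 CPM in KD ICI, and fell by 1.65 ± 0.24 (adjusted p = 0.025). Coro1a overlaps Bola2 and Gmfg overlaps Samd4b on the opposite strand, and no source used here says whether the counting used strand. Bola2 had a change of 0.14 ± 0.13 (adjusted p = 0.637) and Samd4b one of -0.19 ± 0.11 (adjusted p = 0.420).

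Of the immune regulators, Slfn2, a schlafen family gene needed for the quiescence of mouse T cells and monocytes (chromosome 11, 83065112 to 83070678), had the smallest p. It had 9.92, 11.9 and 10.5 CPM in KD RI and 26.4, 22.1 and 25.4 CPM in KD ICI, and fell by 1.19 ± 0.12 (adjusted p = 0.0030). Runx3 (chromosome 4, 135120652 to 135177990), a transcription factor of cytotoxic T cells and other leukocytes, had 0.997, 1.40 and 0.675 CPM in KD RI and 3.40, 3.39 and 6.29 CPM in KD ICI, and fell by 2.08 ± 0.32 (adjusted p = 0.030). KD ICI 3 had the most Runx3 of all 6 libraries, and the change without it was -1.72. Ptpn22 (chromosome 3, 103859795 to 103912247), a phosphatase that damps antigen receptor signalling, had 11.02, 9.46 and 10.2 CPM in KD RI and 18.8, 21.5 and 16.8 CPM in KD ICI, and fell by 0.90 ± 0.13 (adjusted p = 0.026). Cd52 (chromosome 4, 134082448 to 134095082), a small anchored glycoprotein of lymphocytes and monocytes, had 4.54, 5.98 and 4.10 CPM in KD RI and 14.3, 11.04 and 15.8 CPM in KD ICI, and fell by 1.49 ± 0.19 (adjusted p = 0.013). Vsir (chromosome 10, 60346851 to 60372684) encodes VISTA, an inhibitory checkpoint molecule rich on myeloid cells. It had 25.4, 27.3 and 24.1 CPM in KD RI and 50.4, 49.6 and 38.5 CPM in KD ICI, and fell by 0.85 ± 0.14 (adjusted p = 0.047).

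**Figure D2:**
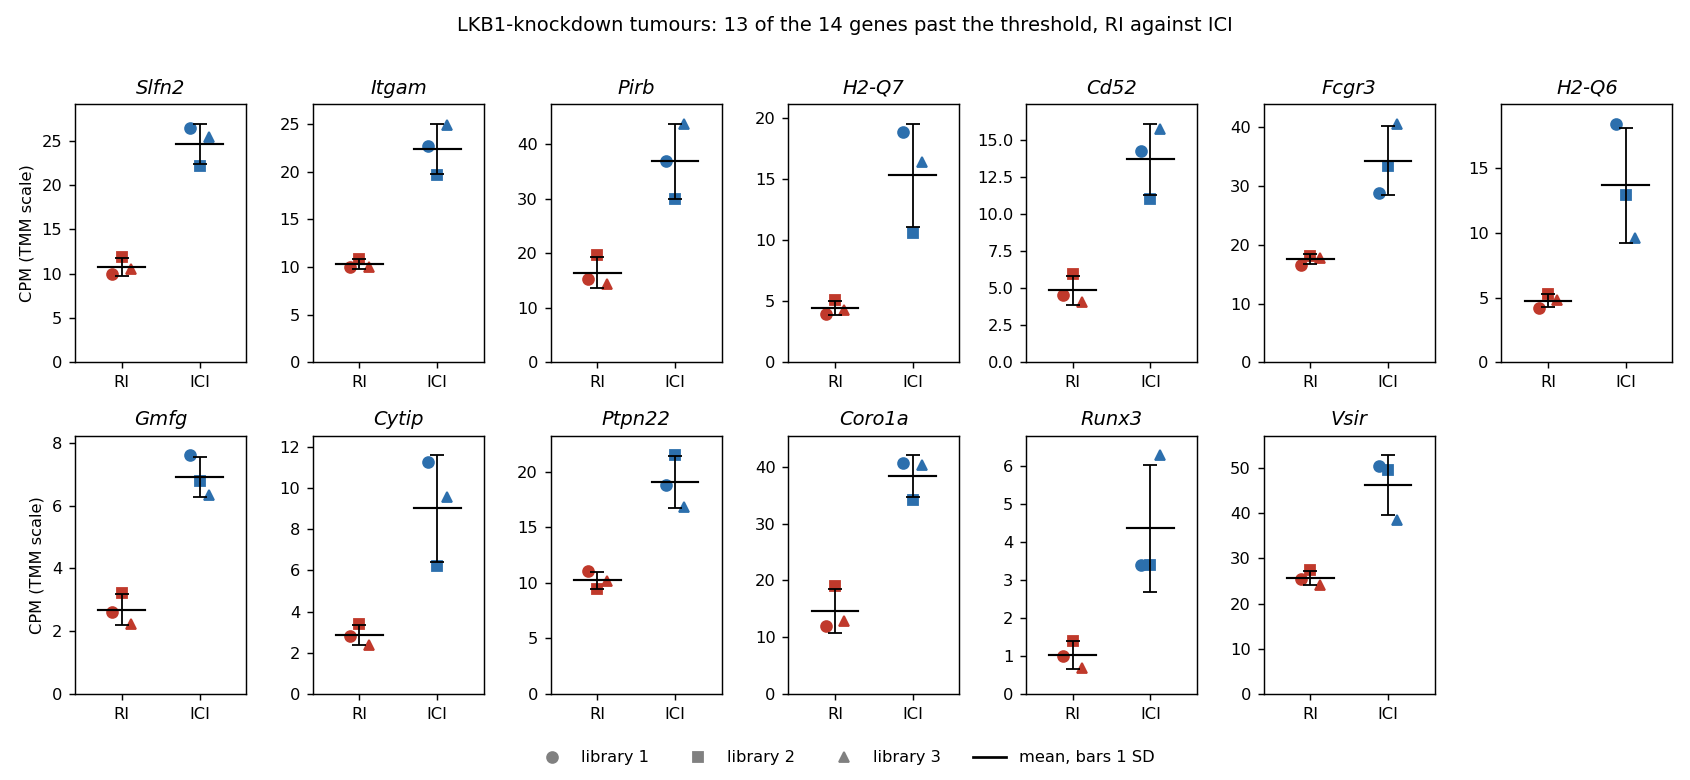
CPM on the TMM scale (y axis, from 0) of 13 of the 14 genes past the threshold in KD RI (red) and KD ICI (blue) tumours, 1 point per library with its number as the marker shape. Lines are means and bars 1 SD of 3 libraries; in every panel all KD RI points lie below all KD ICI points.

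H2-Q6 and H2-Q7 are neighbouring nonclassical class I genes of the Qa-2 group on chromosome 17, at 35424850 to 35430055 and 35439155 to 35443773, whose products are expressed with beta-2 microglobulin and can engage cytotoxic and natural killer cells. Their promoters are shown because the pair moved together and its members are hard to tell apart by sequence. The 300 bases run from 250 before to 50 after each RefSeq start on the plus strand of GRCm38.p6, at chr17:35424600-35424899 for H2-Q6 and chr17:35438905-35439204 for H2-Q7. Capitals mark letters that differ between the aligned windows or that lie beyond their shared stretch.
H2-Q6: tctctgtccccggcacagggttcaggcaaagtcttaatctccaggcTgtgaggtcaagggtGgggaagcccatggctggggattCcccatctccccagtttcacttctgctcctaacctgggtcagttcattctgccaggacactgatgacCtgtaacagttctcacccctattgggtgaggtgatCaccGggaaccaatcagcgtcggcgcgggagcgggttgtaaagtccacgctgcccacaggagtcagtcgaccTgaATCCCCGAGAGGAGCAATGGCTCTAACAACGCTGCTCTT
H2-Q7: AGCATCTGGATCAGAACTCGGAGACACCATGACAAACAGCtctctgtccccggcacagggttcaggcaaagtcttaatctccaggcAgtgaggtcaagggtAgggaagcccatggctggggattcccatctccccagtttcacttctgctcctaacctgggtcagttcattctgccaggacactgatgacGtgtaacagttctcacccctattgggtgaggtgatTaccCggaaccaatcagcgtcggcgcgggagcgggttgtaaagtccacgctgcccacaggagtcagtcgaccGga
In the alignment of 340 columns 254 letters were identical, 6 were mismatched and 80 faced a gap, mostly at the ends where the windows are offset. The longest coding transcripts of the pair were 94.67% identical over 1031 aligned columns, so how the counting shared their reads is uncertain. H2-Q7 had 3.99, 5.09 and 4.31 CPM in KD RI and 18.9, 10.6 and 16.4 CPM in KD ICI, and fell by 1.77 ± 0.23 (adjusted p = 0.013). H2-Q6 had 4.21, 5.25 and 4.83 CPM in KD RI and 18.4, 12.9 and 9.62 CPM in KD ICI, and fell by 1.51 ± 0.21 (adjusted p = 0.021). The groups were apart for both genes, with KD ICI 2 lowest for H2-Q7 and KD ICI 3 lowest for H2-Q6. Their relative H2-Q4, at 92.55% identity to H2-Q6, had 37.5, 42.4 and 44.6 CPM in KD RI and 119, 91.8 and 45.7 CPM in KD ICI. KD ICI 3 was close to KD RI there. H2-Q4 did not pass with all libraries (-1.04 ± 0.25, adjusted p = 0.124) but passed without KD ICI 3 (-1.34 ± 0.12, adjusted p = 0.00015). H2-M3, which presents formylated peptides, had 7.58 to 8.58 CPM in KD RI and 11.6 to 12.6 CPM in KD ICI (-0.60 ± 0.13, adjusted p = 0.102). Of 12 nonclassical class I genes tested 2 passed, both lower, and 5 were lower in every KD RI library than in any KD ICI library. That list was drawn up after the pair was seen and holds it, so its count is no independent evidence.

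Lists of marker and pathway genes put these in context. Their counts without KD ICI 3 stand beside 8.91% higher and 10.5% lower over all genes tested in that fit. Of 21 genes of myeloid signalling 3 fell, Itgam and Fcgr3 among them, and 0 rose, and all 21 were negative, with a median change of -1.03 against -0.02 over all genes, of which 53.1% were negative. The groups did not overlap for 16 of the 21, all lower. Their summed level was 276, 328 and 284 CPM in KD RI and 440, 449 and 586 CPM in KD ICI. Spi1, which encodes PU.1, the master transcription factor of the myeloid line, had 10.5, 12.2 and 9.87 CPM in KD RI and 19.8, 19.8 and 18.3 CPM in KD ICI, short of the threshold (-0.83 ± 0.15, adjusted p = 0.061). Tyrobp, the adaptor DAP12, had 15.1 to 26.6 CPM in KD RI and 35.7 to 44.0 CPM in KD ICI (-0.85 ± 0.18, adjusted p = 0.102). Without KD ICI 3, 15 of the 21 fell and 0 rose, with a median of -0.74. Of 19 pan-leukocyte genes 2 fell (Cd52, Coro1a), all 19 were negative with a median of -0.73, and 14 were apart and lower. Ptprc, which encodes CD45, had 9.75, 15.5 and 9.04 CPM in KD RI and 25.1, 18.6 and 34.1 CPM in KD ICI without passing (-1.18 ± 0.29, adjusted p = 0.125). Both lists were drawn up after the 14 genes were seen and contain some of them, so their counts are no independent evidence.

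Of 19 macrophage genes 1 passed (Itgam), 18 were negative and 7 apart and lower, with a median of -0.66. Of these, 6 fell and 1 rose without KD ICI 3, and the median was then -0.31. Their sum was 2958 to 3164 CPM in KD RI and 3020 to 3360 CPM in KD ICI, but most of it was Spp1, the gene of osteopontin, which tumour cells can also make, at 2325 to 2667 CPM in KD RI and 2188 to 2593 CPM in KD ICI. The other 18 genes summed to 497, 633 and 555 CPM in KD RI and 767, 832 and 984 CPM in KD ICI, lower in every KD RI library. Csf1r, the receptor for the macrophage growth factor, had 20.9, 28.2 and 22.5 CPM in KD RI and 36.2, 35.4 and 51.9 CPM in KD ICI (-0.79 ± 0.17, adjusted p = 0.102). It was among the 6 macrophage genes that fell without KD ICI 3, by 0.58 ± 0.14. Neutrophil and erythroid genes varied widely among the KD ICI libraries. The 16 listed neutrophil genes summed to 254, 543 and 252 CPM in KD RI and 1188, 717 and 300 CPM in KD ICI, and the 15 tested had a median change of -1.47, with 0 past the threshold and 2 apart. Among the 15, 6 fell and 12 were apart and lower without KD ICI 3, at a median of -1.90. Trem1, an amplifying receptor of neutrophils and monocytes, had 1.38, 4.11 and 2.03 CPM in KD RI and 7.82, 4.93 and 7.02 CPM in KD ICI (-1.39 ± 0.36, adjusted p = 0.145). It was among the 6 neutrophil genes that fell without KD ICI 3, by 1.33 ± 0.39. The 7 listed erythroid genes summed to 148, 68.0 and 51.0 CPM in KD RI and 2195, 775 and 179 CPM in KD ICI, and the haem synthesis gene Alas2 had 2.55 to 5.71 CPM in KD RI and 8.27 to 91.6 CPM in KD ICI (-3.48 ± 1.11, adjusted p = 0.236), and fell without KD ICI 3 (adjusted p = 0.046). How far blood or neutrophils in the samples bear on the 14 genes was not tested. T cell genes were scarce. The 18 genes summed to 15.9 to 26.1 CPM in KD RI and 16.2 to 22.8 CPM in KD ICI. Most of that sum was Thy1, at 15.1, 21.9 and 10.3 CPM in KD RI and 14.6, 9.95 and 14.8 CPM in KD ICI. Of the 18 genes 14 were negative and 4 positive, at a median of -0.56. With all libraries 0 of them passed, and 1 fell without KD ICI 3. All 14 cytotoxic and natural killer genes tested were negative, at a median of -1.02, with 4 apart and lower and 0 past the threshold. The 16 listed summed to at most 24.8 CPM in KD RI and at least 25.6 CPM in KD ICI. Without KD ICI 3, 11 of these tested genes were negative and 3 positive, at a median of -1.06, and 1 fell. Of 12 checkpoint genes 10 were negative and 2 positive, at a median of -0.90, and 1 passed (Vsir).

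**Figure D3:**
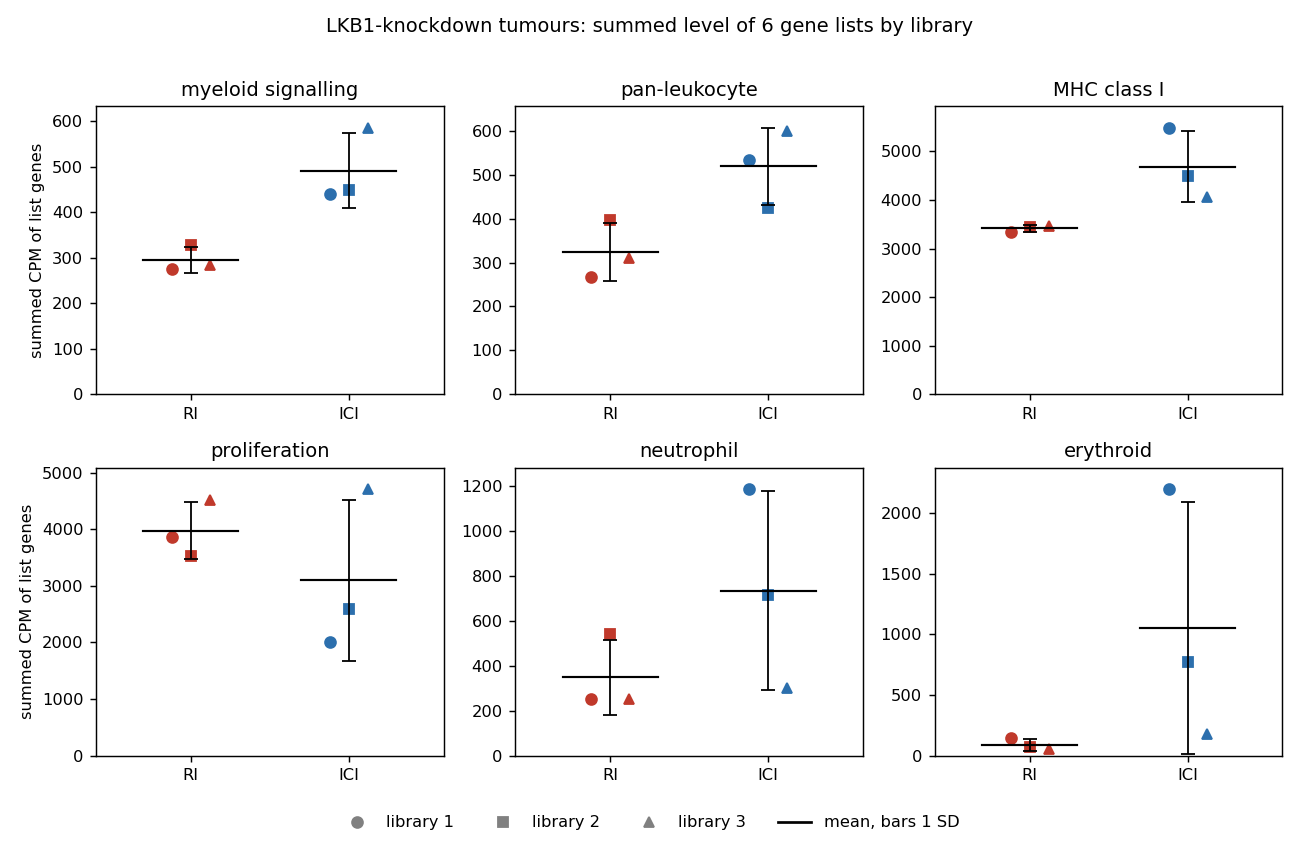
Summed CPM of the genes of 6 lists (y axes, from 0) in KD RI (red) and KD ICI (blue) tumours, 1 point per library with its number as the marker shape, mean and 1 SD of 3 libraries. Myeloid signalling, pan-leukocyte and class I sums are lower in every KD RI library, while for proliferation KD ICI 3 lies above and KD ICI 1 and 2 below all KD RI libraries. The myeloid signalling and pan-leukocyte lists were drawn up after the 14 genes were seen and contain some of them.

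Antigen presentation and interferon genes were lower in KD RI in most cases without passing. Of 16 MHC class I pathway genes 13 were negative, 7 apart and lower and 0 past the threshold, with a median of -0.21. Their sum was 3337 to 3469 CPM in KD RI and 4071 to 5490 CPM in KD ICI. B2m, the light chain of class I molecules, had 455, 493 and 468 CPM in KD RI and 928, 698 and 620 CPM in KD ICI (-0.67 ± 0.16, adjusted p = 0.125), and Tap1, a subunit of the peptide transporter, had 30.4, 35.1 and 37.1 CPM in KD RI and 61.5, 52.1 and 48.3 CPM in KD ICI (-0.66 ± 0.12, adjusted p = 0.087). Without KD ICI 3, 7 of the 16 fell and 2 rose; B2m fell by 0.78 and Tap1 fell by 0.72. Of 19 interferon-gamma response genes 18 were negative and 7 apart and lower, with a median of -0.78 and 0 calls. Their median without KD ICI 3 was -0.20, with 15 negative, 3 positive and 3 calls, all lower. Of 23 type I interferon genes 20 were negative with 0 calls, at a median of -0.29. When KD ICI 3 was left out, 13 of the 23 were negative, at a median of -0.13, and 3 fell and 1 rose. Oas2, a sensor of double-stranded RNA, had 8.78 to 9.20 CPM in KD RI and 12.7 to 20.1 CPM in KD ICI (-0.84 ± 0.16, adjusted p = 0.087). It was among the 3 that fell without KD ICI 3, by 0.64 ± 0.14. The 9 class II genes had a median of -2.26 and 0 calls. Cd74, the invariant chain, had 6.92, 2.24 and 4.83 CPM in KD RI and 5.23, 9.18 and 70.6 CPM in KD ICI, so KD ICI 3 alone was high, and the median of the list without that library was -0.66.

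**Figure D4:**
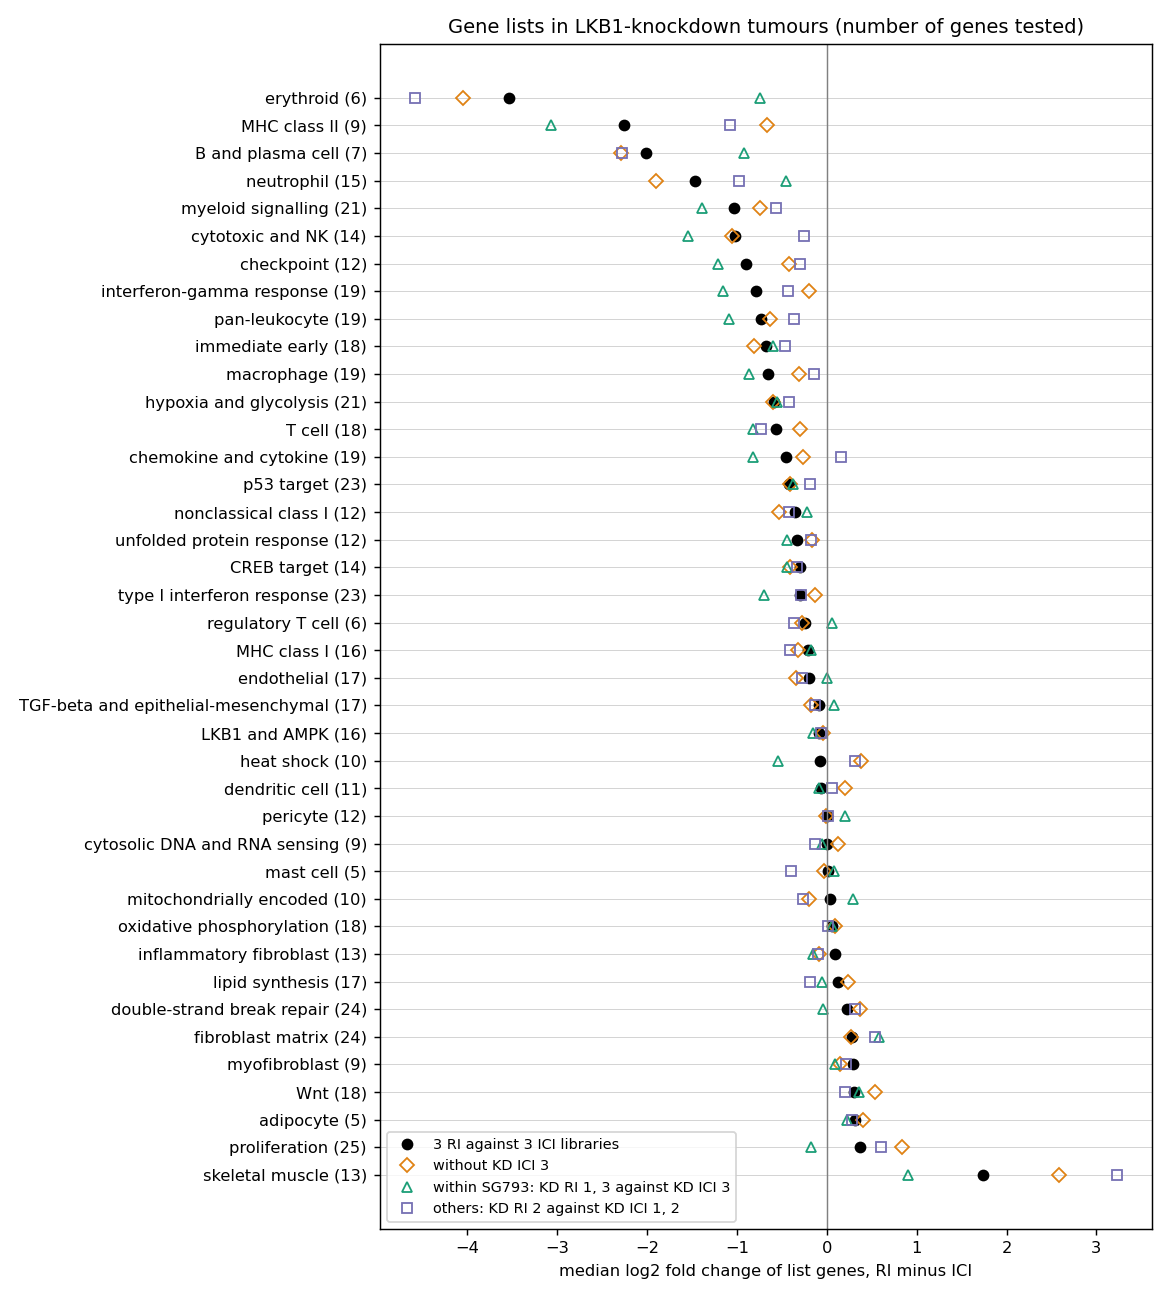
Median log2 fold change of the tested genes of each list, RI minus ICI in KD tumours (x axis), for lists with at least 5 genes tested (y axis, number in brackets). Black circles use all libraries, orange diamonds leave out KD ICI 3, green triangles compare the SG793 libraries and violet squares the other KD libraries. Myeloid signalling is negative in all 4 at -1.03, -0.74, -1.38 and -0.56. That list was drawn up after the 14 genes were seen and contains some of them, and the 4 comparisons share libraries. Proliferation is negative within SG793 at -0.18 and positive in the others.

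The radiation contrast differed from that in WT tumours for 61 genes (0.367%), 10 with a higher (0.0602%) and 51 with a lower (0.307%) change in KD than in WT. Without KD ICI 3 this count was 1902, without KD RI 1 it was 9 and without KD RI 3 it was 13. Among the 14 genes the difference passed for 9, and those it missed include Fcgr3 (adjusted p = 0.127), Gmfg (0.065), Coro1a (0.107) and Vsir (0.152), all by edgeR's quasi-likelihood test. The 14 were chosen by their KD change, which is part of this difference, so that share was favoured in advance and is no independent evidence. H2-Q7 had 91.6, 134 and 116 CPM in WT RI and 78.8, 57.3 and 72.1 CPM in WT ICI, a change of 0.72 ± 0.20 in WT against -1.77 ± 0.23 in KD. Both WT groups held several times the level of either KD group. Slfn2 had 38.6 to 43.8 CPM in WT RI and 33.7 to 37.3 CPM in WT ICI, a change of 0.20 ± 0.11. The WT contrast itself called 47 genes (0.283%), of which 26 rose (0.156%) and 21 fell (0.126%) in WT RI; 0 of the 14 genes were among them.

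**Figure D5:**
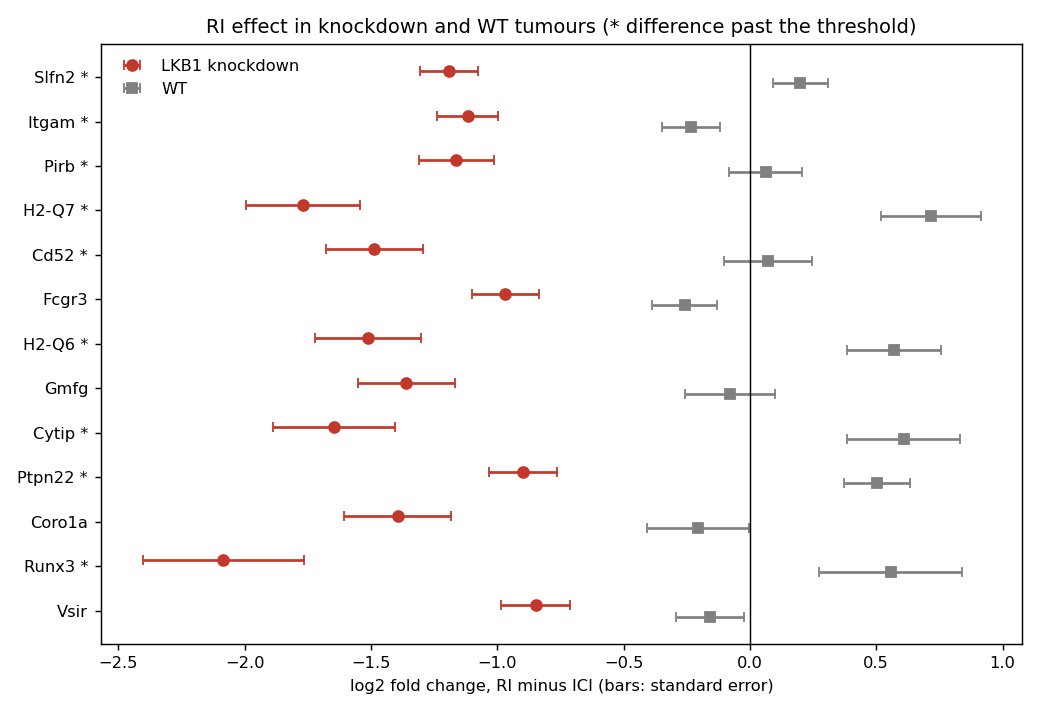
Log2 fold change, RI minus ICI (x axis), of 13 of the 14 genes (y axis) in KD (red circles) and WT (grey squares) tumours, with standard errors as bars. An asterisk marks the 9 genes for which the difference between KD and WT passed an adjusted p of 0.05. The genes were chosen by their KD change, which is part of that difference. KD changes run from -2.08 to -0.85 and WT changes from -0.26 to 0.72.

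The interferon-gamma list held 8 of the 61 genes: Tap1, Igtp, Irgm1, Irf1, Gbp2, Gbp3, Gbp7 and Psmb9, of which all but Gbp2 rose in WT RI. Igtp, an interferon-induced GTPase, had 9.81, 8.06 and 11.3 CPM in KD RI and 14.2, 12.8 and 17.2 CPM in KD ICI (-0.60 ± 0.14, adjusted p = 0.110). Without KD ICI 3 it fell by 0.47 ± 0.13, past the threshold. In WT it had 115, 110 and 108 CPM in WT RI and 50.8, 52.1 and 45.3 CPM in WT ICI, and rose by 1.17 ± 0.13 (adjusted p = 0.0052). Irgm1, a GTPase of the same family, had 15.4, 13.7 and 13.4 CPM in KD RI and 14.1, 16.6 and 20.4 CPM in KD ICI, and in WT 107 to 116 CPM in WT RI and 46.2 to 48.4 CPM in WT ICI. Its KD groups overlapped while its WT groups were apart, and the difference of the effects was -1.51 ± 0.17 (adjusted p = 0.0057). Cd274, which encodes PD-L1, had 6.09, 7.59 and 6.70 CPM in KD RI and 9.86, 9.001 and 11.9 CPM in KD ICI (-0.59 ± 0.15, adjusted p = 0.137), and rose in WT RI by 1.01 ± 0.14 (adjusted p = 0.020). In KD without KD ICI 3 it fell by 0.46 ± 0.15, past the threshold.

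Of 25 proliferation genes 0 passed with all libraries, at a median of 0.37 with all 25 positive, and 24 rose without KD ICI 3, at a median of 0.84. Within the SG793 libraries the median was -0.18 and 21 of 25 were negative. Ube2c, the ubiquitin-conjugating enzyme of mitotic exit, had 127, 117 and 156 CPM in KD RI and 53.5, 64.7 and 185 CPM in KD ICI. KD ICI 1 and 2 were below every KD RI library and KD ICI 3 above every one. Mki67, the proliferation marker Ki-67, had 360, 304 and 405 CPM in KD RI and 155, 244 and 472 CPM in KD ICI, the same order. Ube2c changed by 0.40 ± 0.36 with all libraries (adjusted p = 0.629) and by 1.18 ± 0.13 without KD ICI 3 (adjusted p = 0.00054), and by -0.38 within the SG793 libraries. Over all genes called without KD ICI 3, that library lay nearer on the log2 scale to the KD RI mean than to the mean of KD ICI 1 and 2 for 1414 of 1523 higher genes (92.8%) and 1482 of 1780 lower genes (83.3%), counting genes also measured with all libraries. These genes were chosen for a gap between those means in a fit without KD ICI 3. The share over all genes was not computed, so no likeness of KD ICI 3 to KD RI is read from these counts. Of those called genes, 623 of the 1523 higher and 976 of the 1780 lower kept their sign within the SG793 libraries. Of all 16617 genes tested, 8144 were positive and 8462 negative there.

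Of 24 double-strand break repair genes 0 passed with all libraries, at a median of 0.23, and without KD ICI 3 10 rose and 1 fell. H2afx, the histone variant phosphorylated at breaks, had 99.8, 102 and 129 CPM in KD RI and 47.7, 46.9 and 116 CPM in KD ICI (0.65 ± 0.28, adjusted p = 0.315). Rad54l, a motor protein of homologous recombination, had 22.1, 21.7 and 26.0 CPM in KD RI and 10.2, 10.04 and 31.1 CPM in KD ICI (0.44 ± 0.34, adjusted p = 0.572), and Ankle1, a DNA-cleaving enzyme, 33.5, 28.1 and 39.5 CPM in KD RI and 9.99, 10.8 and 43.6 CPM in KD ICI (0.65 ± 0.45, adjusted p = 0.526). All 3 rose without KD ICI 3. KD ICI 3 was above every KD RI library for Rad54l and Ankle1 and within their range for H2afx. Xrcc5, which encodes Ku80 of end joining, stood apart in all libraries, at 32.7, 41.4 and 31.8 CPM in KD RI and 26.0, 25.3 and 23.2 CPM in KD ICI, but did not pass (0.51 ± 0.15, adjusted p = 0.179). The remaining genes of smallest p without KD ICI 3 were, higher, Oxct1 of ketone use, Ckap2l and Aspm of the mitotic spindle and Ak6, a nuclear adenylate kinase, and, lower, Atg9b of autophagy, Dab2, an endocytic adaptor, Ss18l1, a chromatin remodelling subunit, Nlgn2, a synaptic adhesion molecule, and Ip6k1, an inositol phosphate kinase. Within the SG793 libraries all 8 of the higher genes had negative changes, and Ip6k1 had the opposite sign with 0.54 (adjusted p = 0.043). Dab2 had 100, 114 and 92.6 CPM in KD RI and 206, 202 and 134 CPM in KD ICI, the only one of these 9 apart in all libraries besides Ss18l1 (-0.82 ± 0.15, adjusted p = 0.082).

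Of 23 p53 target genes 0 passed, and 16 were negative, with a median of -0.42. Leaving out KD ICI 3, 4 of them fell and 1 rose, against 10.5% and 8.91% of all genes. Cdkn1a, which encodes the cycle inhibitor p21, had 43.2, 67.5 and 37.7 CPM in KD RI and 84.1, 75.3 and 89.9 CPM in KD ICI, lower in all KD RI libraries (-0.75 ± 0.20, adjusted p = 0.151). Rrm2b, a p53-induced ribonucleotide reductase subunit, had 16.1, 15.4 and 14.9 CPM in KD RI and 9.86, 12.3 and 12.6 CPM in KD ICI, higher in all KD RI libraries (0.41 ± 0.15, adjusted p = 0.256), and rose without KD ICI 3 by 0.48 ± 0.16 (adjusted p = 0.049). Bbc3, the cell death gene Puma, had 7.42, 9.30 and 6.18 CPM in KD RI and 20.8, 19.0 and 8.84 CPM in KD ICI, and fell without KD ICI 3 by 1.37 ± 0.17 (adjusted p = 0.00082).

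Hypoxia and immediate early genes leaned lower in KD RI. All 21 hypoxia and glycolysis genes were negative, at a median of -0.59, with 8 apart and 0 past the threshold, and without KD ICI 3 7 fell. P4ha1, a collagen prolyl hydroxylase induced by hypoxia, had 136, 137 and 115 CPM in KD RI and 232, 164 and 185 CPM in KD ICI (-0.59 ± 0.13, adjusted p = 0.103). It was among the 7 that fell without KD ICI 3, by 0.61 ± 0.13. Of 18 immediate early genes 17 were negative, at a median of -0.67 with 0 calls, and 6 fell without KD ICI 3. Zfp36, which encodes the mRNA decay factor tristetraprolin, had 13.6, 18.1 and 10.96 CPM in KD RI and 34.7, 24.2 and 41.9 CPM in KD ICI, just short of the threshold (-1.24 ± 0.21, adjusted p = 0.058). Sik1, a salt-inducible kinase that LKB1 activates, had 100, 131 and 101 CPM in KD RI and 219, 149 and 130 CPM in KD ICI (-0.58 ± 0.18, adjusted p = 0.199). Of 10 heat shock genes 6 were negative with all libraries (median -0.07, 0 calls). Without KD ICI 3, 9 were positive (median 0.38) and 3 rose, whereas within the SG793 libraries 9 were negative (median -0.54) and 3 fell. Hspa1b, an inducible chaperone, had 53.8, 70.9 and 61.6 CPM in KD RI and 74.8, 26.0 and 368 CPM in KD ICI, the highest value being that of KD ICI 3.

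Fibroblast, pericyte and endothelial genes showed 0 calls with all libraries. Sfrp2, a secreted Wnt modulator of fibroblasts, had 9.58, 11.5 and 3.17 CPM in KD RI and 2.65, 2.94 and 2.55 CPM in KD ICI. Every KD RI library was higher, but the spread within KD RI was wide and the test was not passed (1.57 ± 0.66, adjusted p = 0.304). Among 24 fibroblast matrix genes 21 were positive, at a median of 0.28. Col1a1, a collagen chain, had 397, 360 and 185 CPM in KD RI and 195, 108 and 111 CPM in KD ICI (1.19 ± 0.52, adjusted p = 0.328), and Lrrc15, a surface protein of activated fibroblasts, had 5.65, 2.96 and 2.18 CPM in KD RI and 1.84, 0.995 and 0.884 CPM in KD ICI (1.55 ± 0.41, adjusted p = 0.146). Lrrc15 rose without KD ICI 3 by 1.37 ± 0.44 (adjusted p = 0.043). Has2, a hyaluronan synthase gene of the inflammatory fibroblast list, also passed as higher. Its level was low, at 1.88, 1.09 and 0.779 CPM in KD RI and 0.204, 0 and 0.624 CPM in KD ICI. Without KD ICI 3, 6 of the 13 genes of that list were positive and 7 negative, at a median of -0.09. In that setting 0 fibroblast matrix genes passed, while 1 of 12 pericyte genes rose and 1 fell, and 1 of 17 endothelial genes fell. Of all genes 8.91% rose and 10.5% fell there. The Wnt list had a median of 0.30. Skeletal muscle genes had a median of 1.74 at sums of 27.7, 146 and 146 CPM in KD RI and 22.2, 28.2 and 51.1 CPM in KD ICI, with 0 calls.

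Radiation alone was deposited for KD tumours as FPKM in a separately normalised table, so its values stand beside the others without a test. Cytip had 0.325, 0.234 and 0.351 FPKM in KD RT, with means of 0.315 ± 0.052 in KD RI and 0.916 ± 0.228 in KD ICI (SD, n = 3 each). Coro1a had 3.91, 3.22 and 2.48 FPKM in KD RT, with means of 2.78 ± 0.684 in KD RI and 6.81 ± 0.615 in KD ICI. Slfn2 had 15.6, 9.46 and 11.4 FPKM in KD RT, with means of 6.39 ± 0.508 in KD RI and 13.6 ± 1.04 in KD ICI, and Fcgr3 had 20.3, 19.2 and 12.98 FPKM in KD RT, with means of 4.51 ± 0.142 in KD RI and 8.27 ± 1.88 in KD ICI. Since the tables were normalised separately, no order is read between KD RT and the other groups. The RT values of Itgam and Vsir were not used here.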

How the data were processed

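Total RNA from tumours was made into Illumina libraries, per the labels' protocols. The authors deposited whole-number counts per gene for 12 libraries, with FPKM beside them, and FPKM alone for the 3 KD RT libraries in another table. HISAT2 and the builds GRCm38 and mm10 come from the submitters' processing notes. No source used here gives the counter, strand setting or annotation. Columns were matched to samples by their descriptions, and 0 columns were left unused.

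Counts were filtered with edgeR 4.0.16 (filterByExpr, minimum count 10, minimum total 15), scaled by TMM and fitted in R 4.3.3 with 1 mean for each of 4 groups, glmQLFit with robust shrinkage and a two-sided glmQLFTest, at an adjusted p under 0.05. The biological coefficient of variation common to all genes was 0.209. As standard error stands the size of the change divided by the square root of F. The contrasts were KD RI minus KD ICI, and this minus the same in WT. DESeq2 1.42.0, other scalings and filters and left-out libraries were alternatives. The code was tested on simulated data with fixed seeds. No libraries agreed within sampling noise.

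The comparison and the gene lists were chosen with earlier results of these data known. Named genes are Stk11 and Sfrp2, the genes called, the 8 of smallest p in each direction without KD ICI 3 (at least 2 CPM in the higher group, no predicted name), and up to 2 of smallest p in each direction per list. Spi1, Tyrobp, Ptprc, Mki67, Cd74, H2-M3, Krt8, Cd3e, Irgm1, Irf1, Psmb9, Gbp2, Gbp3, Gbp7, Spp1 and Has2 were chosen after their values were seen. Of the genes called, 1 is counted but not reported here. FPKM served only beside KD RT. Promoters come from RefSeq (GRCm38.p6) and transcripts from GENCODE M21, which gives the 14 genes the deposited positions.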

Additional observations from a re-analysis of the deposited data

Results flagged for a closer look

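For 20 genes named above, the change, RI minus ICI, differed between KD and WT tumours by a test of the difference itself (edgeR's quasi-likelihood test, adjusted p over all genes), each with a lower change in KD. The difference, KD minus WT, was -2.64 for Runx3, -2.48 for H2-Q7, -2.26 for Cytip, -2.08 for H2-Q6, -1.56 for Cd52, -1.40 for Ptpn22, -1.39 for Slfn2, -1.22 for Pirb and -0.89 for Itgam among the genes that fell in KD. Among interferon-induced and class I pathway genes it was -2.87 for Gbp2, -2.10 for Gbp7, -1.996 for Gbp3, -1.77 for Igtp, -1.60 for Cd274, -1.51 for Irgm1, -1.45 for Tap1, -1.32 for Irf1 and -0.995 for Psmb9. It was -1.61 for Zfp36 and -1.59 for Sik1. The genes that fell in KD were chosen by their KD change, which is part of this difference. Slfn2, H2-Q7, Cd274, Tap1, Igtp, Gbp7 and Irgm1 kept the call in all 12 fits that leave out 1 library, H2-Q6 lost it without KD RI 1, and Ptpn22 without WT RI 2 or WT ICI 1. Cytip kept it in 6, Cd52 and Sik1 in 5, Pirb, Runx3, Gbp3 and Irf1 in 4, and Itgam, Zfp36, Gbp2 and Psmb9 in 3. For Irgm1 the change was -0.27 ± 0.12 in KD and 1.25 ± 0.12 in WT, whereas for Pirb it was -1.16 ± 0.15 in KD and 0.06 ± 0.14 in WT.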

How the results depend on the processing

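The direction of the 14 genes was the same under each alternative run, and none of them reversed: 234 of their values kept the call and 116 lost it. The count of 14 was 9 with library size alone, 470 with DESeq2, 97 with no filter on low counts, 0 with the 6 KD libraries alone, 76 with a term for the SG793 naming, 481 within the SG793 libraries (99 higher, 382 lower) and 97 within the other KD libraries (48 higher, 49 lower). A fit within the SG793 libraries has KD ICI 3 as its lone ICI library, and one within the others KD RI 2 as its lone RI library, each assumed to vary like the other groups. Leaving out 1 library gave 0 (without KD RI 3) to 3324 genes (without KD ICI 3). With KD ICI 1 and KD ICI 2 summed as 1 library, beside KD ICI 3, the count was 10, all lower. Without KD ICI 3 that pair is the whole ICI group, counted as separate samples though it may be 1 animal. In alternatives chosen after seeing the data, the 5 KD libraries without KD ICI 3 gave 1400 and all libraries without KD ICI 3 and with KD ICI 1 and 2 summed gave 1115.

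The 61 genes whose effect differed between KD and WT were 31 with library size alone, 598 with DESeq2, 147 with no filter, 223 with the SG793 term, 770 without KD ICI 3 and with KD ICI 1 and 2 summed, and 9 to 1902 when leaving out 1 library. Of 420 values of the 20 differences named above, 310 kept the call and 0 reversed. The cause of these shifts was not tested. The labels state no pairing by title number. In deviations from their group means, same-numbered KD libraries correlated at -0.13, 0.11 and 0.30. In this check 1 of 3 KD RI libraries correlated best with its own number. So few values cannot show whether the samples were paired. With the replicate block, 3 genes passed in KD and 21 differences.

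Reversals occurred in genes not called. Stk11 was 0.0289 with library size alone, -0.15 to 0.0488 over the libraries left out (positive without KD RI 2 or KD ICI 3), and 0.077 and 0.0266 in the added alternatives. Within the SG793 libraries the values were -0.25 for Ankle1, -0.11 for Oxct1, -0.0226 for H2afx, -0.37 for Rad54l, -0.16 for Ckap2l, -0.38 for Ube2c, -0.21 for Aspm, -0.31 for Ak6, -0.30 for Mki67, 0.0394 for Atg9b, 0.0023 for Nlgn2 and 0.54 for Ip6k1 (edgeR adjusted p = 0.043). Hspa1b was -1.83 (without KD ICI 2) to 0.32 (without KD ICI 3) over the libraries left out, 0.51 within the other KD libraries, and 0.34 and 0.45 in the added alternatives. Mki67 was -0.0046 (without KD ICI 1) to 0.84 (without KD ICI 3). Of 42 lists, 23 kept the sign of their median under every alternative. At the depth of these libraries and 3 samples a group, genes of under 1 CPM, such as most T cell genes, give imprecise values.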
